A study of Homo sapiens with 6 samples.

Results

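The semaphorins, their plexin receptors and the neuropilin co-receptors were followed through poly(A) RNA profiles of H3122, an established line from a human lung adenocarcinoma that carries an EML4-ALK fusion gene. The members were all rows of the deposited table whose gene name is that of a semaphorin of classes 3 to 7, a plexin of classes A to D, NRP1 or NRP2. There were 31 of these among 51537 listed genes, 20 semaphorins, 9 plexins and 2 neuropilins. The control group held 3 libraries of H3122 cells labelled as control. The resistant group held 3 libraries of an H3122 derivative that had been taken through rising concentrations of crizotinib, an inhibitor of ALK and MET, from 0.1 to 10 µM. The labels name a single resistant line, do not say whether it is clonal, and do not say whether the drug was present when RNA was taken. Nothing in them says whether the 3 libraries of a group are separate cultures, so the spread behind each p-value may be only technical. The question the series sets is how transcripts differ between resistant and control cells.

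Semaphorins are signalling proteins that share a large extracellular sema domain. Class 3 members are secreted, classes 4, 5 and 6 span the membrane, and SEMA7A is held by a lipid anchor. Plexins bind them and carry an intracellular domain that switches off small GTPases of the Ras and Rap type, which loosens adhesion and collapses actin-rich protrusions. Most class 3 ligands first bind a neuropilin, which then pairs with a class A plexin, and neuropilins also bind VEGF growth factors. The family was first known for steering axons, and in lung cancer SEMA3B and SEMA3F are known as candidate tumour suppressors from a region of chromosome 3p that is often lost.

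The libraries held epithelial transcripts and little of other cell types. Of 8 epithelial markers, 7 were well expressed, with summed levels of 17474 to 18004 TPM in control and 18181 to 19501 TPM in resistant libraries. TPM is a transcript level scaled for gene length, and sums to 1000000 in a library. NKX2-1, a lung lineage factor, did not exceed 0.751 TPM. Neuron markers matter here because neurons express these genes: 8 of 9 stayed under 1 TPM, SNAP25 and STMN2 were listed at 0, and the sum was 3.06 to 3.83 TPM in control and 7.87 to 9.52 TPM in resistant libraries. Most of that was MAP2, at 2.34 and 7.16 TPM on average. Endothelial markers summed to 11.2 to 12.6 and 13.3 to 15.6 TPM, with ERG listed at 0 and TEK at most 0.0669 TPM. Within that list CDH5 fell from 7.24 to 3.45 TPM, while ESAM rose from 3.18 to 8.002 TPM and PECAM1 from 0.912 to 2.80 TPM on average. Of 9 immune markers 6 stayed under 1 TPM (sums of 6.32 to 7.08 and 6.97 to 8.41 TPM), with LYZ listed at 0, and all 8 fibroblast markers did so, with DCN and LUM listed at 0. The part of these marker differences in the results was not tested. In bulk RNA, fewer cells with a transcript and less of it per cell cannot be told apart.

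Most of the family was expressed and most expressed members differed, by modest amounts and in both directions. Of the 31 members, 23 reached 1 TPM in at least 3 libraries and were tested with limma on log2(TPM + 1) in a fit over 16077 genes. At a Benjamini-Hochberg adjusted p below 0.05, 7 members rose and 10 fell in resistant cells, while 6 did not pass. Over all genes tested 48.6% were called, 24% higher and 24.7% lower. The share among the tested members was 73.9%, with 30.4% higher and 43.5% lower. The median log2 fold change was -0.14 for the tested members and -0.004 for all tested genes, and the median size of a change was 0.37 and 0.27. With limma 0 members were called, and 0 had an unadjusted p under 0.05, with a change of at least 2-fold on this scale, against 5.98% of all genes tested. In 20 of the 23 the control and resistant libraries did not overlap, which held for 57.9% of all genes tested. Values below are TPM, given by library or as mean ± SD with n = 3 per group. A log2 fold change is the resistant mean less the control mean of log2(TPM + 1), with its standard error; the added 1 TPM makes changes of low genes look smaller. With limma-voom on reads rebuilt from the TPM, 8 members were called higher and 10 lower, against 54.4% of all genes called. SEMA6C passed 2-fold there (log2 -1.05), and also with limma when 0.1 TPM was added in place of 1 (log2 -1.04, adjusted p = 0.00288).

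**Figure D1:**
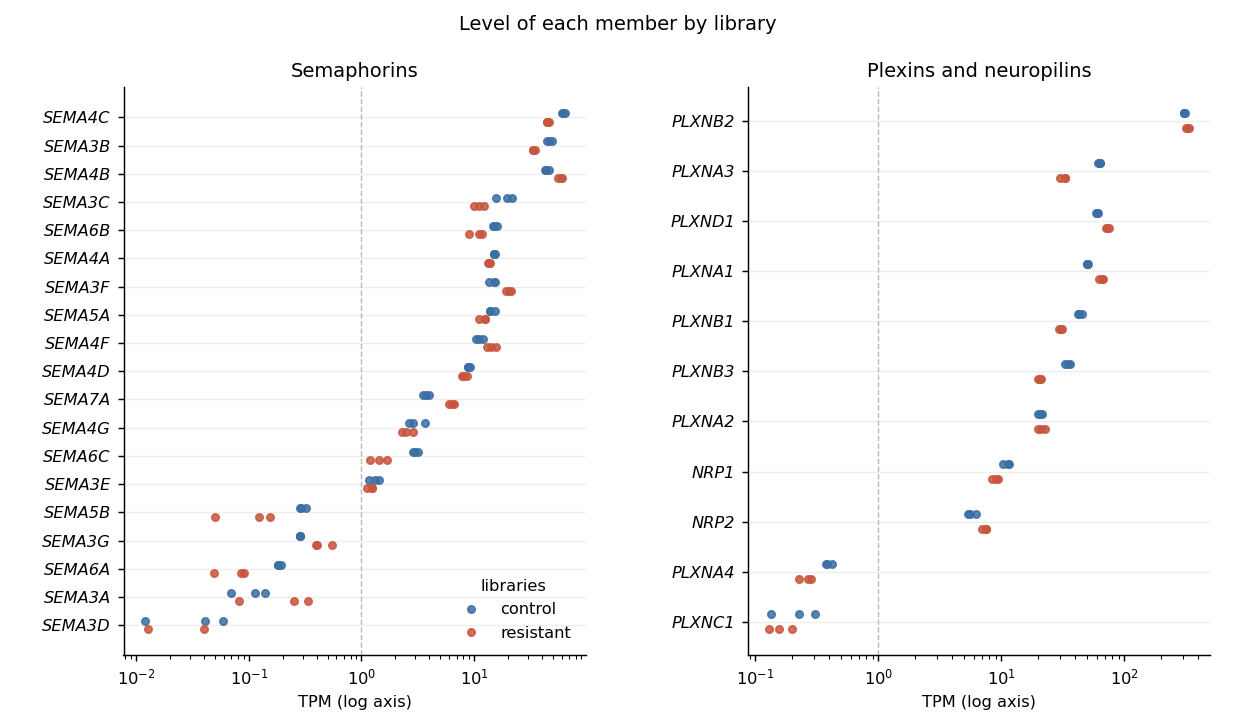
TPM on a log axis for each member in each library, semaphorins on the left, plexins and neuropilins on the right, ordered by the control mean. The dashed line marks 1 TPM; SEMA6D and 1 resistant library of SEMA3D are not drawn because they are listed at 0. Levels run from under 0.1 TPM for SEMA3D to over 300 TPM for PLXNB2.

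**Figure D2:**
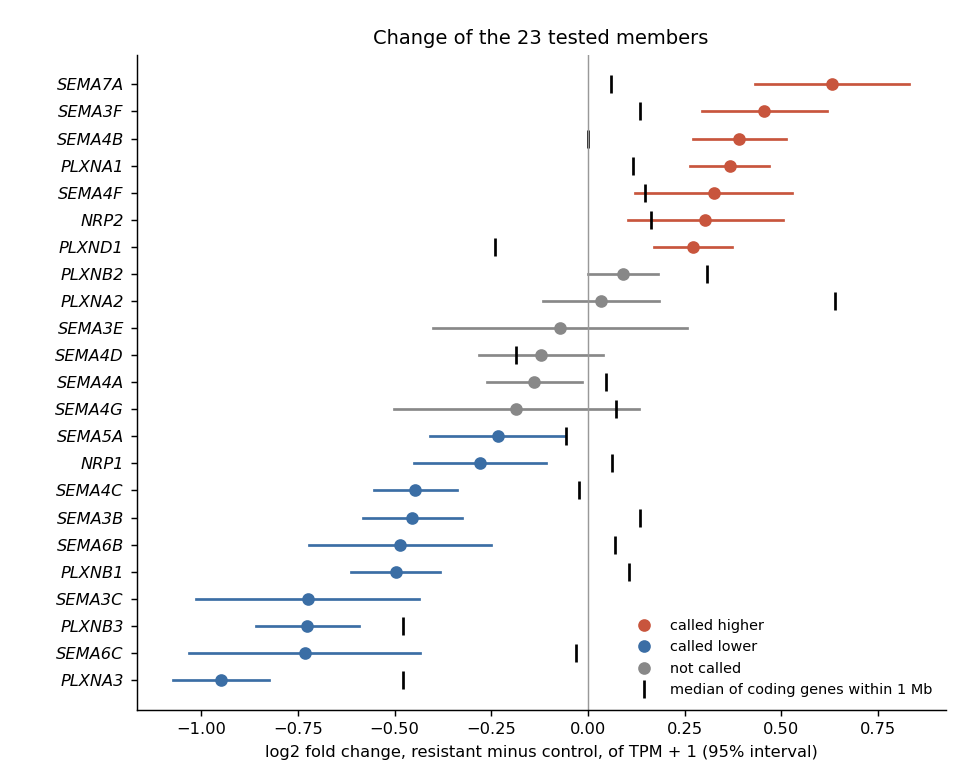
Log2 fold change of TPM + 1, resistant minus control, with its 95% interval for the 23 tested members. Black ticks give the median change of tested protein-coding genes within 1 Mb where at least 3 exist; the changes run from -0.95 for PLXNA3 to 0.63 for SEMA7A.

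The 5 called members with the largest changes were PLXNA3, SEMA6C, PLXNB3 and SEMA3C, which fell, and SEMA7A, which rose. The 250 bases before their start sites are shown because these are the members that moved most. Sequences and starts are from RefSeq on GRCh38.p14, read 5′ to 3′ on the gene's strand, and where the table lists several starts the most upstream is printed. Capitals mark matches to 3 motifs, each searched on both strands. The GC box, which SP-family factors bind, was spelled GGGCGG. The TATA box, which positions the start of transcription in some genes, was spelled TATAAA. The E-box, which ZEB and SNAI repressors can bind, was spelled CACCTG. The windows are chrX:154458031-154458280 on the plus strand for PLXNA3, chr1:151146632-151146881 on the minus strand for SEMA6C, chrX:153763999-153764248 on the plus strand for PLXNB3, chr7:80922390-80922639 on the minus strand for SEMA3C and chr15:74433959-74434208 on the minus strand for SEMA7A.
PLXNA3 promoter: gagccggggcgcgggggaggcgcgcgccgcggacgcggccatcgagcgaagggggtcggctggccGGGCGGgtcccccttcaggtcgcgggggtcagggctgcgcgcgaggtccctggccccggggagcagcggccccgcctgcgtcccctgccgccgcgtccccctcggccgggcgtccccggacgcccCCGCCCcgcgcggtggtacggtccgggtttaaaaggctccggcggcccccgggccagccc
SEMA6C promoter: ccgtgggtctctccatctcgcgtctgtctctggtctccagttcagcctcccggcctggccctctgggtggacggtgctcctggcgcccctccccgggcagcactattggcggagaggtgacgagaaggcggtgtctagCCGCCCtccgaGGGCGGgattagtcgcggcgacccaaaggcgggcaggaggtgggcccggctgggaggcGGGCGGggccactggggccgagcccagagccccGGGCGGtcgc
PLXNB3 promoter: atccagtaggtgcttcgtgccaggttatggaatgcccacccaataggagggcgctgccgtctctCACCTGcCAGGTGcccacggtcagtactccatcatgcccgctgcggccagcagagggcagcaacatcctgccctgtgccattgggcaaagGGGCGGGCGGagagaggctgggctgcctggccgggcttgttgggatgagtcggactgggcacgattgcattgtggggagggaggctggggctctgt
SEMA3C promoter: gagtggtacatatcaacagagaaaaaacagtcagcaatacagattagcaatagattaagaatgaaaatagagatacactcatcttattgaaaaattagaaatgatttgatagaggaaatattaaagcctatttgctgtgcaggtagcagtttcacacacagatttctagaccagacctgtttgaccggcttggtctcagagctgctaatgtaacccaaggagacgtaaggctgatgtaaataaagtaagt
SEMA7A promoter: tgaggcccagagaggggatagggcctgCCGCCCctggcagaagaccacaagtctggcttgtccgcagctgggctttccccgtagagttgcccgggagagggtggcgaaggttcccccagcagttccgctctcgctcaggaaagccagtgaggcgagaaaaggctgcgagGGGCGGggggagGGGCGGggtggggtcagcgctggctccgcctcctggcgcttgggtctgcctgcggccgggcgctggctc

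These windows differ in make-up. That of PLXNA3 is 82.8% G or C with 41 CpG dinucleotides, and those of SEMA6C (73.2%, 24 CpG) and SEMA7A (70.0%, 17 CpG) are also rich, while PLXNB3 has 64.4% and 11. The 2 starts of SEMA3C differ: the printed window has 36.4% and 2 CpG, and that of the downstream start (chr7:80919052-80919301) has 77.6% and 39. The downstream start of SEMA7A has 77.6% and 38. Over all 35114 windows of this length in the table the median was 58.0% G or C and 11 CpG, and over the 48 windows of the 27 members that matched it was 64.8% and 15. PLXNA3 and PLXNB3 have 2 GC boxes each, overlapping each other in PLXNB3, SEMA6C has 4, SEMA7A 3 and SEMA3C none in the printed windows. The downstream starts hold 3 GC boxes for SEMA3C and 4 for SEMA7A. At least 1 GC box was present in 42.6% of all windows and in 30 of the 48 member windows (62.5%), some of which belong to the same gene. PLXNB3 alone of the 5 holds the E-box, with 1 match on each strand, a motif found in 17.5% of all windows and 6 of the 48. None of the 5 holds the TATA box, found in 10.7% of all windows and in 1 of the 48.

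Among the secreted class 3 semaphorins, SEMA3B and SEMA3C fell and SEMA3F rose. SEMA3B, which signals through neuropilins, was at 44.1, 49.7 and 46.5 TPM in control libraries and 33.7, 33.1 and 34.7 TPM in resistant libraries. Every resistant library lay below every control library (log2 -0.45 ± 0.05, adjusted p = 0.000426). SEMA3F, which prefers NRP2, was at 15.04, 13.6 and 15.3 TPM and at 19.3, 20.5 and 21.5 TPM. All 3 resistant libraries were above the controls (log2 0.46 ± 0.07, adjusted p = 0.00130). SEMA3C, a ligand of both neuropilins, was at 15.8, 21.7 and 19.8 TPM in control and 12.3, 9.95 and 11.1 TPM in resistant libraries. It fell by 0.73 on the log2 scale (SE 0.12, adjusted p = 0.00224), with the widest control spread of the tested class 3 genes in TPM. SEMA3E, which binds PLXND1 without a neuropilin, was low at 1.31 ± 0.142 and 1.19 ± 0.0717 TPM and did not pass (adjusted p = 0.698, 95% interval -0.40 to 0.25).

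The mix of class 3 semaphorin transcripts shifted with these changes. Summed class 3 TPM was 76.6, 86.8 and 83.4 in control libraries and 67.2, 65.3 and 69.2 in resistant libraries. SEMA3F made up 15.6% to 19.6% of that sum in control and 28.7% to 31.4% in resistant libraries. SEMA3C made up 20.6% to 24.98% in control and 15.2% to 18.3% in resistant libraries. SEMA3B was the leading class 3 transcript in both groups, at 55.8% to 57.6% and 50.1% to 50.7%. The ratio of SEMA3B to SEMA3F within a library was 2.93 to 3.67 in control and 1.61 to 1.75 in resistant cells.

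SEMA3F and SEMA3B are close neighbours on chromosome 3 that moved apart. In GENCODE 29 on GRCh38, SEMA3F (ENSG00000001617) lies at 50155045 to 50189075 and SEMA3B (ENSG00000012171) at 50267558 to 50277546, 78.5 kb apart with 1 tested protein-coding gene between them. Of 53 other tested coding genes within 1500 kb of their midpoint, 16 rose and 12 fell, with a median log2 change of 0.09. SEMA3B lay below all but 4 of these genes and SEMA3F above 47 of them. The median over 674 tested coding genes of chromosome 3 was 0.0007. SEMA3C (ENSG00000075223, 80742538 to 80922359) lies on chromosome 7, where the median over 571 such genes was -0.33, and only 1 tested coding gene lies within 1 Mb of it. The part of the chromosome in the change of SEMA3C was not tested.

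**Figure D3:**
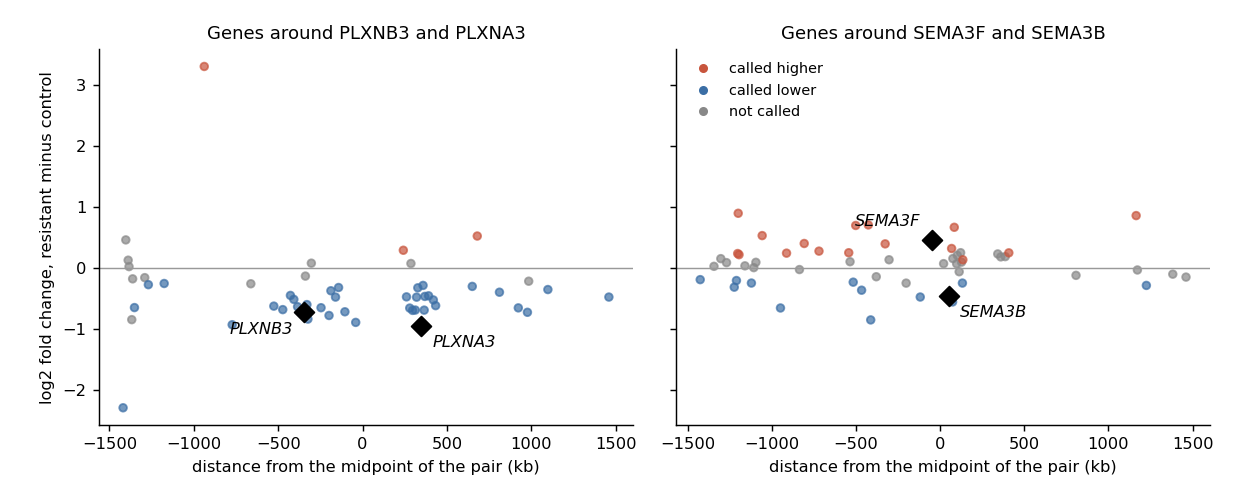
Log2 fold change of tested protein-coding genes by distance in kb from the midpoint between PLXNB3 and PLXNA3 (left, chromosome X) and between SEMA3F and SEMA3B (right, chromosome 3). Diamonds mark the members; most genes around the plexin pair are below 0, while genes around the semaphorin pair lie on both sides.

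In class 4, whose members span the membrane and mostly signal through B plexins, SEMA4B and SEMA4F rose, SEMA4C fell and the other 3 tested members did not pass. SEMA4C, a ligand of PLXNB2, was the most abundant semaphorin of control cells at 59.9, 64.3 and 62.3 TPM, and was at 44.4, 46.8 and 44.8 TPM in resistant cells (log2 -0.45 ± 0.05, adjusted p = 0.000204). SEMA4B was at 44.0, 42.4 and 46.5 TPM and at 60.3, 59.0 and 56.0 TPM (log2 0.39 ± 0.05, adjusted p = 0.000678). SEMA4C was above SEMA4B in every control library and below it in every resistant library, with a ratio of 1.34 to 1.52 in control and 0.736 to 0.801 in resistant libraries. The summed class 4 level overlapped between groups, at 142.7 to 146.9 TPM and 137.6 to 144.8 TPM.

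SEMA4F was at 11.99, 11.02 and 10.5 TPM in control and 15.8, 14.02 and 12.97 TPM in resistant libraries (log2 0.32 ± 0.09, adjusted p = 0.0174). Its groups did not overlap, but the call was lost without control replicate 3 (adjusted p = 0.0637). SEMA4A, known also for roles in immune cells, was at 15.1 ± 0.104 and 13.6 ± 0.197 TPM and narrowly missed the threshold (log2 -0.14 ± 0.05, adjusted p = 0.0635). It passed with median-ratio scaling of the libraries (adjusted p = 0.0481) and without the trended robust estimate of variance (adjusted p = 0.0478). SEMA4A did not pass in any other alternative run, limma-voom among them (adjusted p = 0.0624 to 0.172). SEMA4D, the ligand of PLXNB1, was at 8.97 ± 0.176 and 8.17 ± 0.396 TPM (adjusted p = 0.182, 95% interval -0.28 to 0.04). SEMA4G was at 3.05 ± 0.527 and 2.55 ± 0.313 TPM (adjusted p = 0.294, 95% interval -0.50 to 0.13). Of the exon bases of SEMA4G, 22.3% are shared on the opposite strand with MRPL43, a far more abundant gene at 57.5 and 70.1 TPM. Whether strand was used in the authors' counting is not given in the sources used here, so the SEMA4G values are uncertain.

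All tested members of the transmembrane classes 5 and 6, SEMA5A, SEMA6B and SEMA6C, fell, and the anchored SEMA7A rose. SEMA6C was at 2.99, 2.88 and 3.20 TPM in control and 1.68, 1.18 and 1.43 TPM in resistant libraries (log2 -0.73 ± 0.13, adjusted p = 0.00250). That ratio of means, 0.473, was the smallest of the tested members. SEMA6B, a ligand of A plexins, was at 15.02, 16.04 and 14.7 TPM and at 8.97, 11.8 and 11.2 TPM (log2 -0.49 ± 0.10, adjusted p = 0.00566). SEMA5A, a ligand of PLXNB3 with thrombospondin repeats, fell from 14.4 ± 0.806 to 12.1 ± 0.863 TPM (log2 -0.23 ± 0.07, adjusted p = 0.0342). That call was lost without control replicate 2 (adjusted p = 0.0549) or 3 (0.125), without resistant replicate 2 (0.0535) or 3 (0.114), and without a filter on low values (0.0682). SEMA7A, which acts through integrin beta 1 and PLXNC1, was at 3.52, 3.94 and 3.76 TPM in control and 6.05, 6.62 and 6.35 TPM in resistant libraries. It showed the largest increase of the family (log2 0.63 ± 0.09, adjusted p = 0.000758), with every resistant library above every control library.

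Genes around SEMA6C and SEMA7A had median changes near 0, with single genes on both sides. SEMA6C (ENSG00000143434, chromosome 1, 151131685 to 151146664) had 49 tested coding neighbours within 1 Mb with a median log2 change of -0.03. Of these 14 were called lower and 15 higher, with changes from -0.83 to 1.32. SEMA7A (ENSG00000138623, chromosome 15, 74409289 to 74433958) had 27 with a median of 0.06. Of those 3 were called lower and 6 higher, with changes from -2.22 to 0.62. The part of the surrounding segment in the changes of SEMA6C and SEMA7A was not tested.

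Class A plexins, the signalling partners of neuropilins, changed in opposite directions. PLXNA3 was at 61.4, 63.5 and 63.3 TPM in control and 33.0, 33.2 and 29.9 TPM in resistant libraries. This was the strongest call among the members (log2 -0.95 ± 0.05, adjusted p = 1.39e-05), and the ratio of means was 0.511. PLXNA1 was at 49.5, 49.98 and 51.05 TPM and at 62.4, 66.4 and 66.1 TPM (log2 0.37 ± 0.04, adjusted p = 0.000398). PLXNA2 was at 20.5 ± 0.768 and 21.0 ± 1.40 TPM, with overlapping groups (adjusted p = 0.697, 95% interval -0.12 to 0.18). PLXNA3 was thus the leading class A transcript of control cells, at 46.6% to 47.2% of the class, and 25.5% to 28.6% in resistant cells. PLXNA1 took 37.2% to 37.8% in control and 54.1% to 56.4% in resistant cells. The ratio of PLXNA3 to PLXNA1 was 1.24 to 1.27 in control and 0.452 to 0.529 in resistant libraries.

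**Figure D4:**
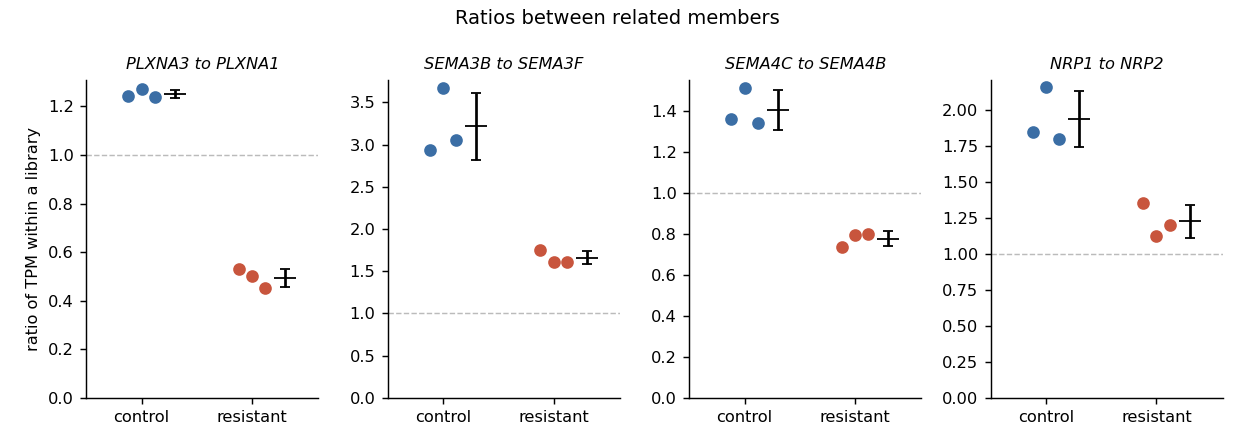
Ratio of the TPM of related members within each library for PLXNA3 to PLXNA1, SEMA3B to SEMA3F, SEMA4C to SEMA4B and NRP1 to NRP2. Points are libraries and the black mark is the mean ± SD of 3; the dashed line is equal levels, which PLXNA3 to PLXNA1 and SEMA4C to SEMA4B cross between the groups.

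Class B plexins, the receptors of class 4 semaphorins, were led by PLXNB2, while PLXNB1 and PLXNB3 fell. PLXNB2 was the most abundant member in every library, at 308, 302 and 309 TPM in control and 315, 337 and 327 TPM in resistant cells. It made up 52.2% to 53.8% of summed plexin TPM in control and 56.9% to 57.9% in resistant libraries. Its own difference did not pass (log2 0.09 ± 0.04, adjusted p = 0.0913). It passed without resistant replicate 1 (adjusted p = 0.0421) and with limma-voom on reads rebuilt from the TPM (log2 0.13, adjusted p = 0.00866). PLXNB2 did not pass in any other alternative run (limma adjusted p = 0.0894 to 0.258). PLXNB1, the receptor of SEMA4D that can associate with the MET kinase, was at 41.7, 45.4 and 43.1 TPM and at 31.1, 30.6 and 29.7 TPM (log2 -0.50 ± 0.05, adjusted p = 0.000170). PLXNB3 was at 32.8, 36.5 and 34.7 TPM and at 20.6, 21.2 and 19.8 TPM (log2 -0.73 ± 0.06, adjusted p = 5.84e-05). In GENCODE 29, 20.4% of the exon bases of PLXNB3 are shared on the same strand with SRPK3, which was at 2.01 and 1.73 TPM. How such reads were divided is not given in the sources used here.

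PLXND1, a receptor known from blood vessels that binds SEMA3E, rose from 58.5, 60.05 and 61.5 TPM to 71.8, 75.2 and 70.99 TPM (log2 0.27 ± 0.04, adjusted p = 0.00165). Its 16 tested coding neighbours within 1 Mb had a median log2 change of -0.24, and 11 of them were called lower and 0 higher. The summed level of all plexins overlapped between groups, at 571.9 to 584.2 TPM in control and 554.0 to 586.3 TPM in resistant libraries.

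The plexins with the largest decreases lie near each other on the X chromosome, where most genes were lower. PLXNB3 (ENSG00000198753) is at 153764196 to 153779346 and PLXNA3 (ENSG00000130827) at 154458281 to 154477779, 679 kb apart. Of the 18 tested coding genes between them 15 were called lower, with a median log2 change of -0.54. Within 1500 kb of their midpoint, 37 of 51 other tested coding genes were called lower and 3 higher, with a median of -0.47. Only 1 of these lay below PLXNA3 and 7 below PLXNB3. The median over 388 tested coding genes of the X chromosome was -0.32. PLXNB1, on chromosome 3, had 40 such neighbours within 1 Mb with a median of 0.11. The part of the surrounding segment in the falls of PLXNA3 and PLXNB3 was not tested.

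The neuropilins moved in opposite directions by small amounts. NRP1 was at 10.4, 11.5 and 11.3 TPM in control and 9.34, 8.43 and 9.02 TPM in resistant libraries (log2 -0.28 ± 0.07, adjusted p = 0.0156). NRP2 was at 5.597, 5.33 and 6.26 TPM and at 6.91, 7.48 and 7.499 TPM (log2 0.30 ± 0.09, adjusted p = 0.0208). The groups did not overlap for either gene, and the ratio of NRP1 to NRP2 was 1.80 to 2.16 in control and 1.13 to 1.35 in resistant libraries. Their sum overlapped, at 16.0 to 17.5 and 15.9 to 16.5 TPM. The call of NRP1 was lost without control replicate 2 (adjusted p = 0.0582) or 3 (0.0609) or resistant replicate 2 (0.0566). That of NRP2 was lost without control replicate 1 (adjusted p = 0.0522) or 2 (0.0734) or resistant replicate 2 (0.0672) or 3 (0.0710).

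Another 8 members were below the filter and were not tested in the main comparison. SEMA6D, a ligand of PLXNA1, was listed at 0 in all 6 libraries. The low plexins were PLXNA4, at 0.393 ± 0.0218 and 0.260 ± 0.0291 TPM, and PLXNC1, the other receptor of SEMA7A, at 0.223 ± 0.0874 and 0.161 ± 0.0349 TPM. SEMA5B was at 0.283, 0.322 and 0.291 TPM in control and 0.154, 0.124 and 0.0497 TPM in resistant libraries, and SEMA6A at 0.181, 0.194 and 0.183 TPM and at 0.0485, 0.0905 and 0.0848 TPM. SEMA3G was at 0.285, 0.283 and 0.285 TPM and at 0.403, 0.550 and 0.391 TPM. SEMA3A, the classical repellent of axons, was at 0.107 ± 0.0348 and 0.222 ± 0.129 TPM with overlapping groups, and SEMA3D did not exceed 0.0586 TPM. The groups did not overlap for 4 of these 8, PLXNA4, SEMA3G, SEMA5B and SEMA6A, a property of 14.6% of the 14722 genes below the filter that were above 0. Fitted with limma without the filter, 0 of the 7 that were above 0 were called (adjusted p = 0.140 to 0.634), against 3.67% of genes below it, and 1, SEMA5B, had an unadjusted p under 0.05. SEMA5B and SEMA6A rested on an estimated 4.11 to 26.0 and 5 to 21 reads per library.

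Genes that act with the family were counted from lists of 86 genes. Of these 57 were tested, 18 rose, 19 fell and 20 did not pass, with a median log2 change of -0.03. Over all genes tested 24% were called higher and 24.7% lower, with a median of -0.004. Among GTPases and exchange factors that plexins act on or recruit, 6 of 17 tested rose and 7 fell. RRAS, the GTPase that plexins inactivate, rose from 33.7 ± 3.88 to 80.5 ± 0.912 TPM (log2 1.24 ± 0.08, adjusted p = 2.79e-05). RAP1A, another GTPase substrate, fell from 22.6 ± 1.55 to 13.9 ± 1.19 TPM, and FARP1, an exchange factor, from 11.9 ± 0.482 to 6.09 ± 0.197 TPM. FARP1 lies on chromosome 13, where the median over 195 tested coding genes was -0.52.

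Cytoskeletal effectors act downstream of the receptors. Of 14 tested MICAL, CRMP and kinase effectors, 3 rose, 2 fell and 9 did not pass. Over all genes tested 24% were called higher and 24.7% lower. PAK1, a kinase downstream of Rac, rose from 17.7 ± 0.586 to 24.5 ± 1.17 TPM, and LIMK2, which inactivates cofilin, from 18.5 ± 1.16 to 22.99 ± 0.662 TPM. MICAL1, an enzyme that oxidises actin, was at 11.4 ± 1.66 and 8.80 ± 0.545 TPM (log2 -0.34, adjusted p = 0.0330). DPYSL2, which encodes the CRMP2 mediator of SEMA3A signals, was at 21.9 ± 1.07 and 24.5 ± 0.416 TPM (log2 0.15, adjusted p = 0.0473). The call of MICAL1 was lost without control replicate 2 (adjusted p = 0.0907) or 3 (0.0803) or resistant replicate 1 (0.0803) or 3 (0.0861), and without the filter (0.0758). That of DPYSL2 was lost without any single one of the 6 libraries (adjusted p = 0.0628 to 0.124), without the filter (0.0826) and without the trended robust estimate (0.0654).

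**Figure D5:**
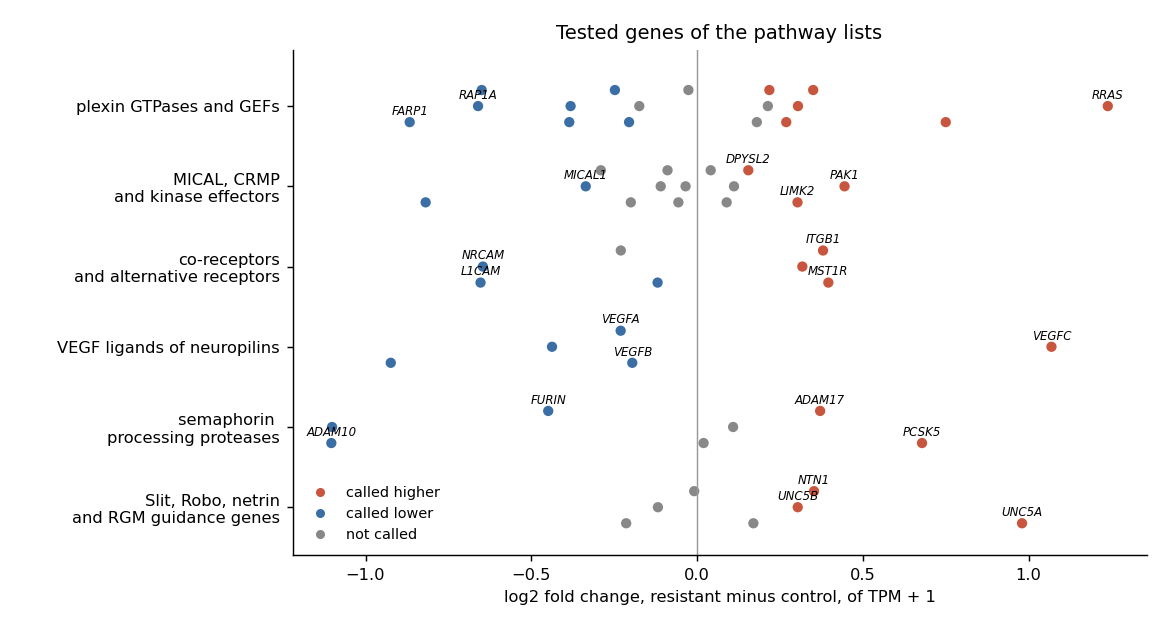
Log2 fold change of TPM + 1, resistant minus control, for the 57 tested genes of 6 lists of genes that act with semaphorins or in other guidance systems. Names mark a selection of the called genes; RRAS, VEGFC and UNC5A lie furthest to the right and ADAM10 furthest to the left among those named.

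Co-receptors and VEGF ligands went both ways. Of 17 co-receptors and alternative receptors, 7 were tested, 3 rose and 3 fell. Over all genes tested 24% were called higher and 24.7% lower. L1CAM, an adhesion molecule that pairs with NRP1, fell from 48.9 ± 0.792 to 30.8 ± 1.58 TPM, and its relative NRCAM from 7.07 ± 0.727 to 4.16 ± 0.496 TPM. L1CAM lies on the X chromosome between PLXNB3 and PLXNA3, and is among the 18 genes counted there, whose median log2 change was -0.54. NRCAM lies on chromosome 7, whose median was below 0 as given above. The part of these regions in the 2 falls was not tested. MST1R, the RON kinase that can associate with B plexins, rose from 46.5 ± 1.90 to 61.6 ± 2.40 TPM, and ITGB1, the integrin subunit that SEMA7A binds, from 131 ± 12.3 to 171 ± 14.04 TPM. KDR, the VEGF receptor that works with NRP1, was listed at 0 in all libraries. Of 5 VEGF ligands, 4 fell and 1 rose, a small set to set against 24.7% and 24% of all genes tested. VEGFC, which binds NRP2, rose from 10.9 ± 0.969 to 24.0 ± 0.717 TPM (log2 1.07 ± 0.07, adjusted p = 3.44e-05). VEGFA was at 21.2 ± 1.16 and 17.9 ± 0.439 TPM (adjusted p = 0.0140) and VEGFB at 164 ± 10.5 and 143 ± 8.19 TPM (adjusted p = 0.0346). The VEGFA call was lost without control replicate 2 (adjusted p = 0.0534) or 3 (0.0574). That of VEGFB was lost without control replicate 1 (adjusted p = 0.0642) or 2 (0.101) or resistant replicate 1 (0.0838) or 2 (0.0584), without the filter (0.0764) and without the trended robust estimate (0.0737).

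Proteases that cleave semaphorins and other guidance genes were measured beside the family. Of 7 tested proteases, 2 rose, 3 fell and 2 did not pass. FURIN, which processes class 3 semaphorins, fell from 194 ± 7.32 to 142 ± 9.88 TPM (log2 -0.45 ± 0.06, adjusted p = 0.000665). ADAM10, a sheddase, fell from 42.4 ± 5.31 to 19.2 ± 2.17 TPM, while ADAM17, which sheds SEMA4D in platelets, rose from 39.7 ± 2.43 to 51.6 ± 1.88 TPM. PCSK5, a relative of furin, rose from 2.91 ± 0.188 to 5.29 ± 0.813 TPM. In the Slit, Robo, netrin and RGM systems 14 of 21 genes stayed under 1 TPM. Of 7 tested 3 rose and 0 fell, against 24% and 24.7% of all genes tested. Lower genes with an unadjusted limma p under 0.05, or called lower with limma-voom, also numbered 0. Of the 4 that did not pass, NTN4, RGMA and RGMB had estimates below 0 (log2 -0.008, -0.12 and -0.21) and NEO1 above 0 (0.17). NTN1, which encodes netrin-1, rose from 33.0 ± 0.662 to 42.4 ± 2.24 TPM, and its receptors UNC5A and UNC5B from 17.3 ± 0.443 to 35.1 ± 0.890 TPM and from 11.1 ± 0.353 to 13.95 ± 0.621 TPM.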

How the data were processed

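The authors deposited 1 table of TPM per gene and library, after alignment with HISAT2 (named in the submitters' processing notes). Version, counting tool, build, annotation and filters: not given in the sources used here. TPM keeps no depth. Multiplied by GENCODE 29 union exon length and divided by a step for each library, 67.2% to 67.9% of values above 0 were whole within 0.01 read. The step was the most common low value of TPM times length, refined as the median over its near multiples. The rebuilt totals were 29856927 to 36695580 reads, and 1 TPM of a 2000 bp gene was 16.9 to 21.0 reads; these are estimates.

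The 16077 genes that reached 1 TPM in 3 or more libraries were fitted with limma 3.58.1 in R 4.3.3 on log2(TPM + 1), with trended robust empirical Bayes (statmod 1.5.0), two-sided, with Benjamini-Hochberg adjustment over all genes tested. The script was tested on simulated data. Members and lists were chosen with earlier results of these data known. All members are named; of each pathway list, up to 4 called genes, by size of change, whose larger group mean was 5 TPM or more; 1 of these is not reported here. The neuron list matched 9 of 10 names. Alternatives were a pseudocount of 0.1 TPM, other filters, median-ratio scaling, a replicate block, plain empirical Bayes, leaving out each library, and, added after seeing the data, limma-voom on rebuilt reads. Coordinates are 1-based, GENCODE 29 on GRCh38.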

Additional observations from a re-analysis of the deposited data

How the results depend on the processing

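The counts of called members, 7 higher and 10 lower, stayed within 1.5 times under every alternative run. Leaving out a library gave 6 to 8 higher and 8 to 10 lower. Of the 17 called members, 13 were called under all alternatives that tested them; NRP1, NRP2, SEMA4F and SEMA5A were not. PLXNA2, which was not called, changed sign without resistant replicate 2, and leaving out single libraries gave log2 changes from -0.013 to 0.078. Same-numbered replicates did not deviate together (r = -0.0583, -0.0017 and -0.0163 across genes). The labels do not say whether the numbers pair the libraries, and with 3 libraries per group these values cannot settle it. With the replicate number as a replicate block, 6 members were called higher and 8 lower, and the calls lost were NRP1 (adjusted p = 0.0646), NRP2 (0.0599), SEMA5A (0.104) and, among the pathway genes named, DPYSL2 (0.104) and VEGFA (0.0531). The 7 members above 0 but below the filter rested on at most 65 rebuilt reads in a library.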

Other observations

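Some listed genes outside the naming rule had values worth a second look; they were chosen after their values were seen. FYN, a kinase of SEMA3A signalling, had 1.98 ± 0.329 TPM in the control and 0.685 ± 0.0531 TPM in the resistant group (log2 -0.82, limma adjusted p = 0.00328). MMP14, a membrane protease, was at 3.61 ± 0.0846 and 1.16 ± 0.319 TPM (log2 -1.10, adjusted p = 0.000552). VEGFD, listed under its older name FIGF and on the X chromosome, was at 3.52 ± 0.269 and 1.38 ± 0.0888 TPM (log2 -0.92, adjusted p = 0.000483). DPYSL5, which encodes a CRMP protein, was below the filter at 1.12 ± 0.142 and 0.175 ± 0.0219 TPM. ROBO3, a Slit receptor relative, was also below it, at 0.0592 ± 0.0402 and 0.892 ± 0.115 TPM. Neither was tested in the main comparison, and their results in the fit without the filter are not given here.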
